A study of Homo sapiens with 9 samples.

Results

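Bidirectional promoters are stretches of DNA that lie between the starts of 2 protein-coding genes transcribed away from each other. The accessible regions of this kind were taken from ATAC-seq peaks of HepG2 cells by position alone. Peak intervals of all lists were merged on chromosomes 1 to 22, and a merged region was kept when it overlapped the 1 kb windows around both starts of a divergent pair whose 5′ ends lay at most 1000 bp apart (GENCODE release 44 on GRCh37, with 1 outermost start per gene). The annotation held 859 such pairs among 19229 protein-coding genes. Of the 109960 merged regions, 793 met the rule, and they belonged to 777 of the pairs. No peak value entered the choice.

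ATAC-seq maps open chromatin through the sites at which a transposase can cut and tag DNA. HepG2 is an established line from a human hepatocellular carcinoma. Cells were transfected for 72 hours with 50 nM of NTG, a non-targeting siRNA, or with siINO80#1 or siINO80#2, which are independent siRNAs against INO80, the ATPase of the INO80 chromatin remodeling complex. Every group comprised 3 separate transfections, 9 samples in total, but the 3 were represented by a single list of peaks, so no spread between replicates exists, no test between siRNAs was possible, and every interval below is a 95% Wilson interval of counting error alone. INO80 itself, its transcript and its protein were not measured in these data.

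At a bidirectional promoter, polymerase is loaded in both directions from 1 shared nucleosome-depleted stretch. Such promoters are typically rich in CpG dinucleotides and poor in TATA boxes, and many belong to genes of DNA repair, mitochondria and other functions that most cells need. INO80 slides and evicts nucleosomes and is known at the nucleosomes that flank gene starts.

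The sequences between the paired starts show part of what these regions are made of. Shown are 7 pairs that return below: those with an INO80 complex subunit, pairs known from textbooks, and those with the strongest peaks in all lists. Each is the plus strand of GRCh37 from the base after the minus-strand gene's start to the base before the plus-strand gene's start. The minus-strand gene is named first and lies to the left. Capitals mark matches, on either strand, to the short motifs explained further below. None overlaps an annotated exon or UTR. The SARS2/MRPS12 stretch lies in an intron of a protein-coding gene model without a symbol (ENSG00000269547), and the others lie in no annotated gene.
MCRS1/PRPF40B, chr12:49961929-49962000: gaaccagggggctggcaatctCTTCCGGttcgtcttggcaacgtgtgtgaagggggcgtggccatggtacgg
SARS2/MRPS12, chr19:39421404-39421583: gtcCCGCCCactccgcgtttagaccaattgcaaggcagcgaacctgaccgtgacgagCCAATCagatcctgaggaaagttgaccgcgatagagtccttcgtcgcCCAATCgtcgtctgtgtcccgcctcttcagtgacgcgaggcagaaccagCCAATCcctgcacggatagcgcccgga
GYS1/RUVBL2, chr19:49496568-49496818: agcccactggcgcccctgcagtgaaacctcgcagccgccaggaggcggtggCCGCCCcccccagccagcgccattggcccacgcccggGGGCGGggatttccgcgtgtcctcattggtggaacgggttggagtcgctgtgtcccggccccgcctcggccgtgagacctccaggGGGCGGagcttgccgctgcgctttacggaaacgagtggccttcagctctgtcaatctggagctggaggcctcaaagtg
COL4A4/COL4A3, chr2:228029170-228029339: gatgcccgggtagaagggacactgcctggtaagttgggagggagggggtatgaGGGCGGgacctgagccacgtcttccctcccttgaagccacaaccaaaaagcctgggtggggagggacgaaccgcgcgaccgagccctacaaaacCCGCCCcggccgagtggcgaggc
PPAT/PAICS, chr4:57301782-57301906: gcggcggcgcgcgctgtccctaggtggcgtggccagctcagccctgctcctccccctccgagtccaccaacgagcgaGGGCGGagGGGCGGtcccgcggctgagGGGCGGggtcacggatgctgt
YIPF5/KCTD16, chr5:143550279-143550436: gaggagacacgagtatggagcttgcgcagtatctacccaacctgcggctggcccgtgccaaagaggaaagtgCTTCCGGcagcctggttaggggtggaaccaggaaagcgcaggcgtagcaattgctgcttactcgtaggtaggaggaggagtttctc
DIS3/PIBF1, chr13:73356235-73356270: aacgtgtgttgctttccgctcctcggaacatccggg
Between SARS2 and MRPS12 the motif CCAATC of NF-Y occurs 3 times in 180 bases. The PPAT/PAICS stretch holds 3 matches to GGGCGG in 125 bases, and the ETS motif stands once each in the MCRS1 and YIPF5 stretches. The DIS3/PIBF1 stretch, of only 36 bases, holds none of the motifs searched. The longer window on the strongest summit of that region, described further below, held matches to the ETS motif, GGGCGG and the NF-Y motif.

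Facts of the lists as a whole bear on each count. The lists held 68784 (NTG), 68344 (siINO80#1) and 52399 (siINO80#2) intervals on these chromosomes. Read numbers are not in the files. Fold enrichment and p were solved for pileup and local background, on the assumption of the usual MACS2 formulas. The lowest background of each list was 3.82 (NTG), 5.16 (siINO80#1) and 5.34 (siINO80#2). Divided by the shortest interval of the list (148, 140 and 144 bp), it put the reads behind siINO80#1 at 1.43 times those of NTG. For siINO80#2 the ratio was 1.44. These ratios rest on the extremes of filtered lists and are rough. Of 11 liver markers, 7 had a peak within 1 kb of the start in all lists, among them APOA1, APOB, HNF4A and FOXA2. ALB had a peak in NTG and siINO80#1, TTR in siINO80#2 alone, and SERPINA1 and FGB had none. Of 10 markers of other cell types, VIM had a peak (NTG and siINO80#1) and the others had none.

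Bidirectional promoters were mostly open with all 3 siRNAs. Of the 793 regions, 637 had a peak in every list, 80.3% (77.4 to 82.9), against 26.7% of all regions. Promoters of single-direction genes, those with no opposite protein-coding start within 1 kb, held an intermediate place at 67.9% (67.0 to 68.9) of 9812 regions. NTG alone held 29 bidirectional promoters, 3.66%, where 24.5% of all regions were found in NTG alone. Both siINO80 lists without NTG held 11, 1.39%, against a background of 5.18%. The remaining regions were in siINO80#1 alone (37), siINO80#2 alone (19), NTG with siINO80#1 (55) and NTG with siINO80#2 (5). Over all regions these classes held 21.6%, 11.8%, 7.60% and 2.62%. At equal list length the order of the siINO80 lists turned, with siINO80#1 alone at 2.55% in place of 4.67% and siINO80#2 alone at 4.84% in place of 2.40%. Merging within 500 bp brought the shares found only in NTG and only in siINO80#1 to 1.78% each and that found only in siINO80#2 to 1.1%, and a −log10 q of at least 5 brought them to 5.63%, 5.19% and 0.741%.

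**Figure D1:**
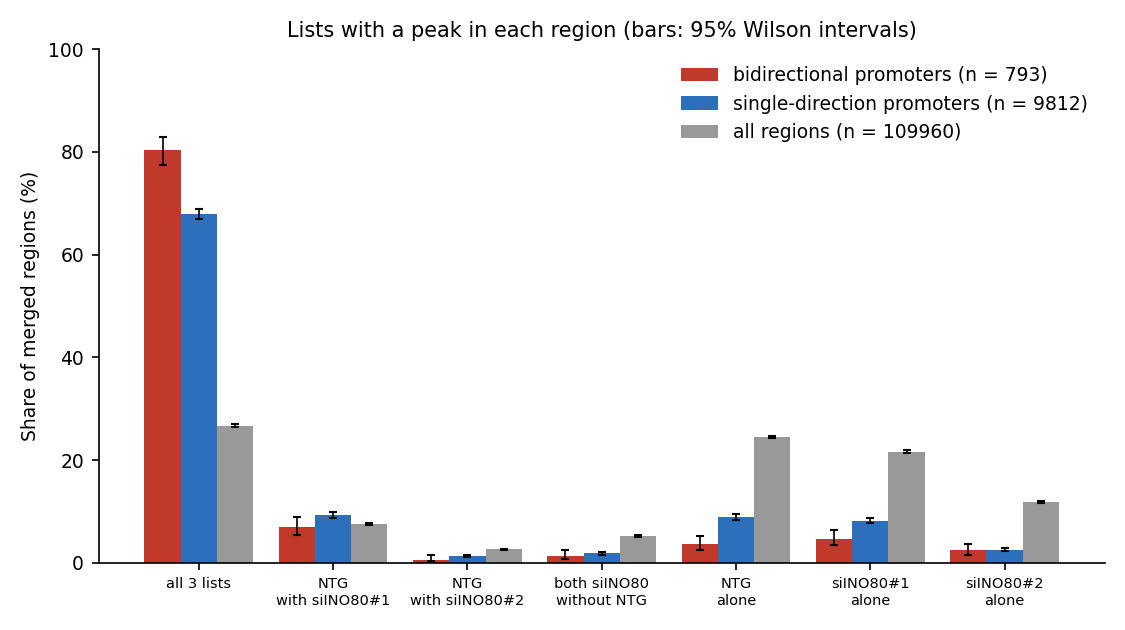
Share of merged regions (y axis, percent) in each of the 7 combinations of lists (x axis), for bidirectional promoters, single-direction promoters and all regions, with 95% Wilson intervals. The bar for all 3 lists stands at 80.3% for bidirectional promoters, above 67.9% and 26.7%, and the 3 single-list bars of bidirectional promoters lie between 2.40% and 4.67%.

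Counted by gene pair, 689 of 859 pairs (80.2%) had a peak in all lists and 82 (9.55%) in none. Of the 1656 genes in pairs, 90.3% (88.8 to 91.7) had a region within 1 kb of the start in some list, whereas 54.0% (53.2 to 54.7) of 16630 single-direction genes did. By list, the share of paired genes was 87.3% in NTG, 87.7% in siINO80#1 and 82.5% in siINO80#2. The order of the lists was the same for single-direction genes except that NTG and siINO80#1 changed places, with 49.8%, 49.6% and 43.4%.

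The next comparison asked whether regions open with NTG were also open after each siINO80 siRNA. Of the 726 bidirectional promoters with an NTG peak, 692 also had a siINO80#1 peak, 95.3% (93.5 to 96.6), where the share was 55.9% of all NTG regions and 88.3% of single-direction promoters. With siINO80#2, 642 had a peak, 88.4% (85.9 to 90.6), beside 47.8% of all NTG regions and 79.2% of single-direction promoters. The counts of regions with a peak were 726, 740 and 672 in NTG, siINO80#1 and siINO80#2. When each list was cut to its 52399 strongest intervals, the length of the siINO80#2 list, the counts were 675, 676 and 673. Thus the 54 fewer regions of siINO80#2 became 2 fewer, and the 14 more of siINO80#1 became 1 more, at equal list length. At that length 92.3% of the NTG regions were matched in siINO80#2, against 86.2% at single-direction promoters and 57.1% over all regions.

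Strong NTG peaks had counterparts at nearly every bidirectional promoter. The 765 NTG intervals there were split by the quintile of the whole NTG list, ranked by fold enrichment, to which they belonged. In the strongest quintile lay 424 of them, of which all 424 were matched in siINO80#1 and 422 (99.5%) in siINO80#2. In the weakest quintile lay 59, of which 42 (71.2%, 58.6 to 81.2) and 27 (45.8%, 33.7 to 58.3) were matched. At single-direction promoters the weakest quintile gave 56.7% and 31.7%, and over all regions 25.3% and 17.5%. The strongest quintile gave 99.7% and 99.0% at single-direction promoters and 97.1% and 93.0% over all regions, so strong peaks were mostly matched everywhere. Within every quintile the share at bidirectional promoters was the highest of the 3 sets, but its interval overlapped that of single-direction promoters in each quintile and for both siRNAs.

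**Figure D2:**
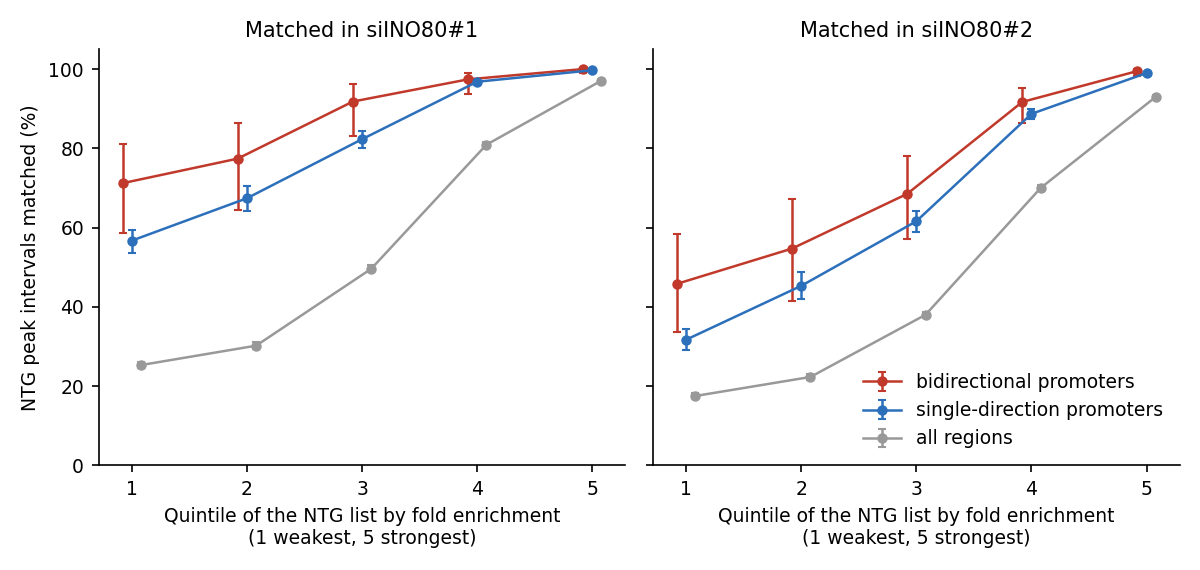
Share of NTG peak intervals overlapped by a siINO80#1 peak (left) or a siINO80#2 peak (right) on the y axis, in percent, by quintile of the NTG list on the x axis, with 95% Wilson intervals. Bidirectional promoters run from 71.2% to 100% with siINO80#1 and from 45.8% to 99.5% with siINO80#2, above all regions in each quintile.

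Peaks at bidirectional promoters were strong within their lists. Each interval was given its percentile of fold enrichment (reads at the summit over local background) within its own list, since the enrichment itself is not on 1 scale across lists. The median percentile was 85.0 (95% interval of the median 83.6 to 86.6) in NTG, 82.1 (80.3 to 84.7) in siINO80#1 and 82.4 (79.2 to 84.8) in siINO80#2. The medians of single-direction promoters were 75.9, 74.5 and 73.3, below the lower bounds for bidirectional promoters. In NTG 37.7% of the bidirectional promoters stood in the top decile of all intervals, in siINO80#1 36.1% and in siINO80#2 35.9%. Median interval widths were 885, 888 and 816 bp, compared with 678, 692 and 639 bp at single-direction promoters.

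In the 637 regions open in all lists, the median strength differed little between siRNAs. On the within-list percentile, siINO80#1 minus NTG had a median of -0.17 points, with 297 regions higher and 340 lower. The siINO80#2 difference was -1.91 points, with 223 higher and 414 lower, beside -3.92 points over the 29350 regions shared by all lists. The within-list percentile falls in a shorter list, so the shared regions were also ranked among themselves. On that rank the median differences of the bidirectional promoters were -0.41 and -0.16 points, and 308 regions were higher and 329 lower with siINO80#2. Over all shared regions the medians were -0.22 and -0.17 points, and at single-direction promoters -0.52 and -1.35. A rank higher by over 20 points with both siRNAs was seen in 17 regions (2.67%) and a lower one in 47 (7.38%). The shares were 3.03% and 5.82% at single-direction promoters and 8.40% and 7.69% of all shared regions. Regions already near the top cannot rise that far, and the part of starting strength in these shares was not tested. Both differences subtract the same NTG list, so a shift with both siRNAs was not seen independently by each.

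**Figure D3:**
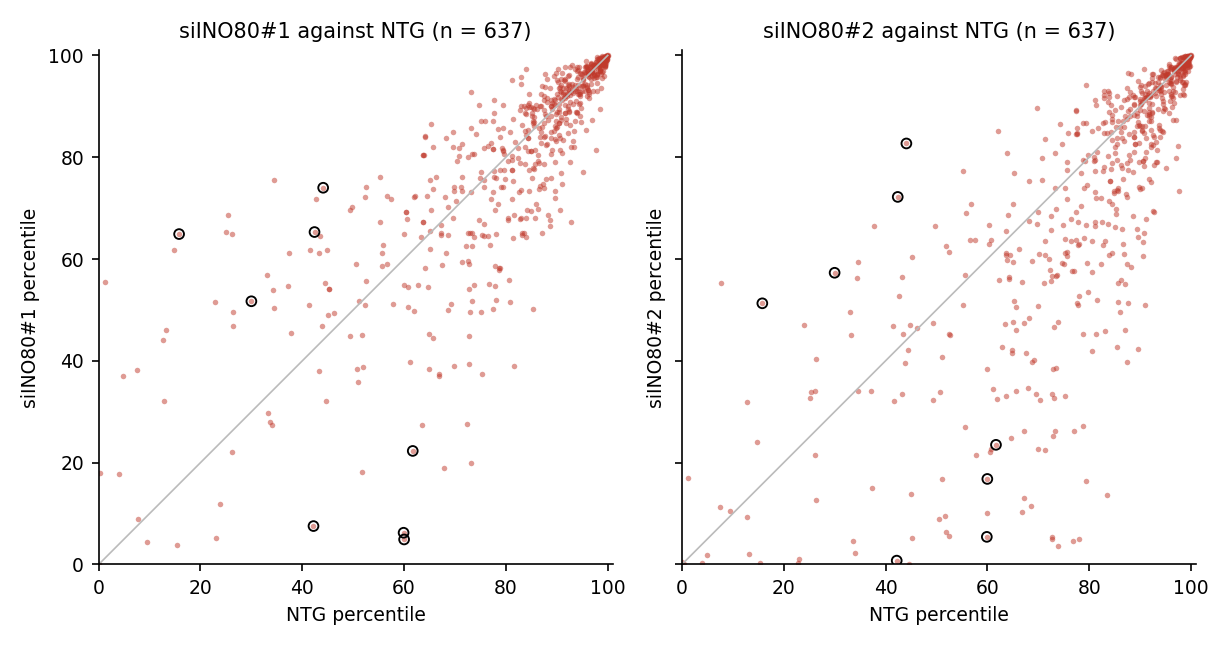
Within-list percentile of fold enrichment of the 637 bidirectional promoters open in all lists, NTG on the x axis and siINO80#1 (left) or siINO80#2 (right) on the y axis. Points gather in the upper right corner around medians of 87.6 for NTG, 86.7 for siINO80#1 and 84.0 for siINO80#2, the line marks equal percentiles, and the circles are the 8 regions named for shifts in 1 direction with both siRNAs.

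Of the 14 textbook pairs looked up, 7 were divergent pairs at the gene-level starts used here, and all 7 had a peak in every list. Values are given here for 6. NPAT/ATM, which joins a regulator of histone genes to the kinase that signals DNA double-strand breaks, stood at percentiles 98.6 in NTG, 96.3 with siINO80#1 and 97.9 with siINO80#2. PDCD10/SERPINI1 reached 96.0, 98.0 and 97.7. Both pairs stayed within 3 points across lists.

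PRKDC/MCM4 encodes the DNA-dependent protein kinase and a subunit of the replicative helicase, with 7 bp between the starts. Its percentiles were 92.9, 94.3 and 92.6. PPAT/PAICS, enzymes of purine synthesis, had 93.5, 87.1 and 89.5. SARS2/MRPS12, a mitochondrial tRNA synthetase and a mitochondrial ribosomal protein, had 72.6, 59.7 and 65.7, so that NTG was the highest of the lists at both pairs. COL4A4/COL4A3, collagen IV chains of specialised basement membranes, was the weakest textbook pair, at 51.7, 45.1 and 9.55. Its siINO80#2 summit had a pileup of 20 reads and a −log10 q of 1.88, and in no list did the summit of the strongest interval lie nearer than 438 bp to the midpoint of the starts. A separate region of the pair, in NTG alone at percentile 16.2, reached both starts.

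Of the 16 INO80 complex genes looked up, 2 were in divergent pairs. GYS1/RUVBL2 joins muscle glycogen synthase to an AAA+ ATPase of the complex. Its fold enrichment was 5.51 in NTG, 4.79 with siINO80#1 and 3.92 with siINO80#2, at percentiles 81.1, 77.4 and 67.2. MCRS1/PRPF40B joins another subunit to a splicing factor. It had a peak in NTG (fold enrichment 3.15, percentile 42.2) and in siINO80#1 (3.27, 54.1) and none in siINO80#2. Its NTG summit held 22 reads and its siINO80#1 summit 31, near the list medians of 20 and 24.

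The 5 regions with the highest percentile in their weakest list were all above 99 in every list. WBP11/C12orf60 on chromosome 12 had fold enrichments of 18.0, 16.6 and 16.4 in NTG, siINO80#1 and siINO80#2. WBP11 is a splicing factor. YIPF5/KCTD16 had 16.1, 16.7 and 15.2. DIS3/PIBF1, with the catalytic ribonuclease of the RNA exosome, had 14.6, 14.3 and 12.6. In each of the 5 the intervals reached both starts, and the summit lay within 68 bp of the midpoint.

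Regions found in some lists only were mostly narrow and often lay to the side of the starts. Of the 623 bidirectional promoters that reached both starts of a pair, 577 (92.6%, 90.3 to 94.4) were in all lists. Of the 170 that did not, 60 (35.3%, 28.5 to 42.7) were. Their median widths were 1168 and 343 bp. Reach and width were taken on the merged region, which joins the intervals of its lists. Each further list can only widen a region, so the link of reach and width with the number of lists is partly built in. Among the single-list regions, 5 of the 29 in NTG alone, 3 of the 37 in siINO80#1 alone and 3 of the 19 in siINO80#2 alone reached both starts. Of the 85 single-list regions, 46 (54.1%) belonged to a pair with another region open in all lists. The highest in NTG alone, at percentile 78.4, was the region at AGBL4/ELAVL4 centred on the AGBL4 side at -657 bp from the midpoint, and the other region of that pair was in NTG with siINO80#1.

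SDF2/SUPT6H, with the gene of a histone chaperone of transcription elongation, had a peak in NTG alone, of 19 reads at percentile 60.4, with its summit 466 bp on the SDF2 side. In siINO80#1 alone the highest region was at TMEM64/NECAB1, percentile 41.8. In siINO80#2 alone it was at C6orf58, percentile 69.6, opposite SOGA3 and an unnamed gene model that share a start.

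The regions in NTG and siINO80#1 but not siINO80#2 outnumbered those in NTG and siINO80#2 but not siINO80#1 by 55 to 5. The imbalance was also there outside these promoters. The classes held 7.60% and 2.62% of all regions and 9.26% and 1.35% of single-direction promoters. Ranked by the lower of the NTG and siINO80#1 percentiles, the highest were AREL1/FCF1 (percentiles 71.8 and 68.6), RECQL5/SAP30BP (65.0 and 67.0) and TSPAN19/LRRIQ1 (80.2 and 63.4). RECQL5 is a DNA helicase and FCF1 a factor of ribosome assembly. At equal list length NTG with siINO80#1 held 4.17% of the regions and NTG with siINO80#2 1.48%, against 6.94% and 0.63% as deposited. TEX46/KDM1A, with the histone demethylase LSD1, was the highest region of the rarer class, at percentile 39.6 in NTG and 74.8 in siINO80#2.

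The 11 regions in both siINO80 lists without NTG are those in which a peak was called after each INO80 siRNA and not with NTG. The highest by the lower of its percentiles, APBA3/MRPL54, stood at percentiles 58.4 (siINO80#1) and 56.2 (siINO80#2), with a centre 762 bp from the midpoint. SLX4/DNASE1, with a scaffold of DNA repair nucleases, stood at 50.4 and 23.1. Another region of each pair had an NTG peak, at percentile 3.52 for APBA3/MRPL54 and 7.02 for SLX4/DNASE1. Both pairs therefore counted as open in all lists. NFE2/COPZ1 stood at 31.5 and 39.0 with 25 and 23 reads at the summit. By pair, 9 were in this class, with a median GC content of 73.0% around the midpoint, compared with 64.3% in the 689 pairs open in all lists. The median was 73.7% in the 9 pairs of siINO80#1 alone and 70.7% in the 9 of siINO80#2 alone, so it was high there too. In NTG with siINO80#1 it was 69.0%, in NTG alone 66.0% and in NTG with siINO80#2 59.8%. In the GC-richest of 3 groups of pairs (68.7 to 85.7%), 80.9% had an NTG peak, 84.1% a siINO80#1 peak and 75.1% a siINO80#2 peak, while the middle group had 93.1%, 92.4% and 89.0%. The part of GC content in these classes was not tested.

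Among regions open in all lists, 4 were named for the percentiles most above NTG with both siRNAs and 4 for those most below. IRGQ, opposite ZNF576 and SRRM5, had fold enrichments of 2.69 in NTG, 3.83 with siINO80#1 and 3.20 with siINO80#2, with 18, 45 and 33 reads at the summit. POLDIP2/TMEM199 had 3.23, 4.48 and 5.17, MBOAT7/TSEN34 had 3.16, 3.87 and 4.25, and the region at TCF12 had 2.91, 3.22 and 3.44. POLDIP2 binds DNA polymerase delta, TSEN34 is a subunit of the tRNA splicing endonuclease, and TCF12 is a helix-loop-helix transcription factor. Enrichment and reads are not on 1 scale across lists, so the percentiles that picked these regions are also given, in the same order of lists. They were 15.8, 64.9 and 51.3 for IRGQ and 44.1, 74.0 and 82.7 for POLDIP2. MBOAT7 had 42.4, 65.3 and 72.2 and TCF12 30.0, 51.7 and 57.3. By this choice the NTG percentile was the lowest in all 4.

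In the other direction, MRPL10/LRRC46, with a mitochondrial ribosomal protein, had 3.76 in NTG, 2.30 with siINO80#1 and 2.27 with siINO80#2. ZNF106/SNAP23 had 3.77, 2.25 and 2.52, ALKBH4/LRWD1 had 3.91, 2.56 and 2.59, and BET1L/RIC8A had 3.15, 2.33 and 2.00. In percentiles, MRPL10/LRRC46 stood at 59.9, 6.23 and 5.42 and ZNF106/SNAP23 at 60.0, 4.91 and 16.8. ALKBH4/LRWD1 stood at 61.7, 22.3 and 23.5 and BET1L/RIC8A at 42.2, 7.54 and 0.751. SNAP23 and BET1L are membrane fusion proteins and LRWD1 associates with the origin recognition complex. The 8 regions lay between percentiles 15.8 and 61.7 in NTG, that is, none was among its strong peaks. They were picked as the extremes of 637 regions, both differences use the same NTG value, and there is no replicate check.

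Gene groups were read as counts of pairs open in all lists, beside the 80.2% of all pairs. DNA replication and repair genes were in 32 pairs, of which 30 (93.8%, 79.9 to 98.3) were open in all lists and 2 in none, NTHL1/TSC2 and PRSS54/GINS3. Mitochondrial genes were in 48 pairs, of which 44 (91.7%, 80.4 to 96.7) were open in all. FAU/MRPL49 was in both siINO80 lists only and MRPL21/IGHMBP2 in NTG and siINO80#1. RNA processing and transcription genes had 26 of 32, zinc finger genes 22 of 27, chaperones 12 of 13, solute carriers 10 of 12 and proteasome subunits 5 of 6. Cytosolic ribosomal proteins had 8 of 11, with RPS16/SUPT5H in no list, and replication-dependent histones, of which 23 genes made 12 pairs, had 9 of 12. The INO80 complex pairs were open in all lists in 1 of 2 and the collagen IV pair in 1 of 1. The intervals of all these shares overlapped the share of all pairs, except that of mitochondrial genes, whose lower bound was 80.4%. With a −log10 q of at least 5, 79.2% (65.7 to 88.3) of the mitochondrial pairs were open in all lists.

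The summit of the open interval mostly lay near the midpoint between the starts. Over the 689 pairs open in all lists, the summit's signed distance from the midpoint had medians of -10.5 (NTG), -0.5 (siINO80#1) and -1.0 bp (siINO80#2), and its unsigned distance medians of 85.5, 74.0 and 84.5 bp. The summit lay between the starts in 42.4% (38.7 to 46.1), 48.6% (44.9 to 52.4) and 44.6% (40.9 to 48.3). One interval covered both starts in 84.8% (81.9 to 87.3), 86.1% (83.3 to 88.5) and 80.8% (77.7 to 83.6). It reached past the minus-strand start by a median of 411, 401 and 342 bp. Past the plus-strand start the medians were 369, 407 and 324 bp. Left and right follow the genome strand alone, so signed medians near 0 and near equal reaches follow from this layout. They do not show that single pairs opened symmetrically. The siINO80#2 interval was narrower than that of NTG in 438 pairs and wider in 249, with a median difference of -67 bp, whereas siINO80#1 was wider in 369 and narrower in 318 (31 bp).

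The profile over all 859 pairs had its highest value at the midpoint, where 78.1% of pairs were covered by an NTG interval, 80.4% by a siINO80#1 interval and 73.2% by a siINO80#2 interval. At 500 bp to either side NTG covered 41.3% (minus-strand gene) and 38.4% (plus-strand gene). Single-direction starts, which were laid out by gene strand, had a maximum of 36.9% in NTG. They had 13.4% at 500 bp upstream and 20% at 500 bp downstream. The pairs were not laid out by gene, so the symmetry of the sets cannot be compared.

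**Figure D4:**
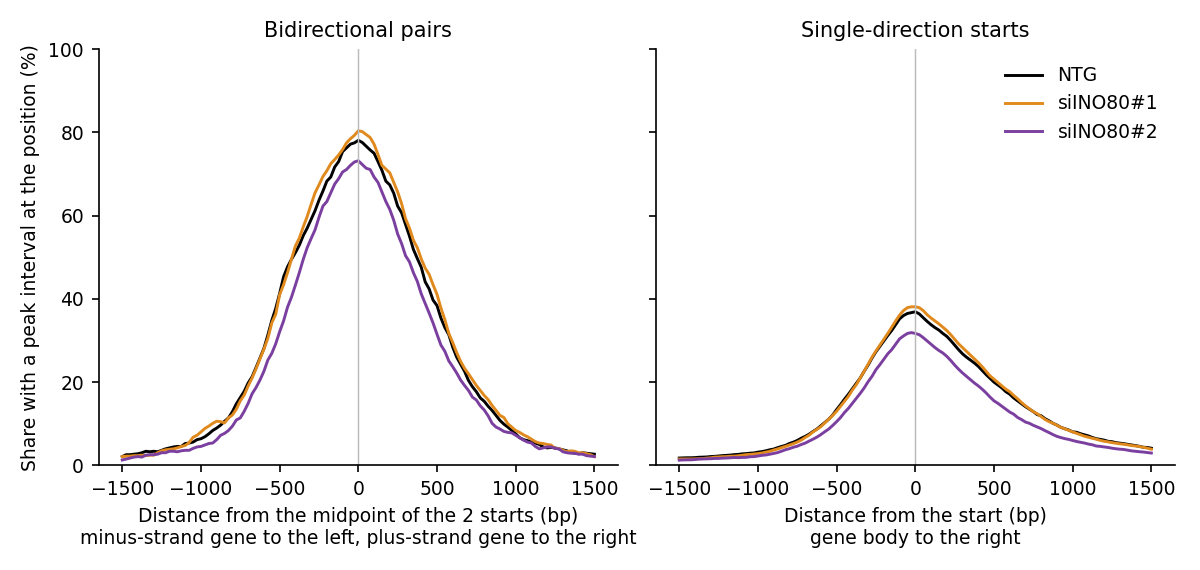
Share of pairs or genes (y axis, percent) with a peak interval at each position (x axis, bp), in steps of 25 bp, for 859 bidirectional pairs around the midpoint of their starts (left) and 16630 single-direction starts, gene body to the right (right). The bidirectional curves have maxima of 78.1% (NTG), 80.4% (siINO80#1) and 73.2% (siINO80#2). Their near symmetry follows from the layout by genome strand. The single-direction curves are lower and lean toward the gene body.

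The distance between starts had a median of 130 bp, and 80.9% of the pairs had starts at most 300 bp apart. Up to 300 bp, between 79.6% and 84.8% of pairs in each distance class were open in all lists, and beyond 500 bp 68.9% (57.7 to 78.3) were. The share of NTG peaks that covered both starts went from 88.7% at 1 to 50 bp to 43.1% beyond 500 bp. In siINO80#2 it went from 91.6% to 32.7%. The closest pair open in all lists was NEK1/CLCN3, 1 bp apart, at percentiles 95.3, 96.8 and 96.3. The farthest was PSMB1/TBP, a proteasome subunit and the TATA-binding protein, 995 bp apart, at 96.0, 93.5 and 94.3, and an interval of 1636, 1803 and 1631 bp in the respective lists covered both starts.

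Sequence was read in a window of 300 bases on the strongest summit of each region. Bidirectional promoters had a median GC content of 64.7%, single-direction promoters 65.3% and all regions 46.0%. The median ratio of observed to expected CpG was 0.857, 0.798 and 0.196. The bases on either side of the pair were skewed, with medians of opposite sign. In the 200 bases on the minus-strand gene's side the excess of G over C had a median of -9.92% on the plus strand. On the plus-strand gene's side it was 10.0%. The opposite sign and like size of these medians follow from reading the plus strand on both sides. Of 859 pairs, 447 (52.0%) had negative skew on the minus-strand gene's side together with positive skew on the other. Downstream of single-direction starts the excess was 4.40% on the gene's strand, and upstream -0.76%.

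The 12 motifs were searched as exact letters on both strands. CCGGAAG, the core bound by ETS factors such as GABP, was in 26.9% (23.9 to 30.1) of bidirectional promoters, 15.2% (14.5 to 15.9) of single-direction promoters and 3.03% of all regions. GCGCATGC, from the site of NRF1, a regulator of respiratory genes, was in 7.31%, 3.94% and 0.792%. AAGATGGC, the motif of YY1, itself a subunit of the INO80 complex, was in 5.67% (4.27 to 7.51), 3.76% (3.40 to 4.16) and 1.76%. GGGCGG of SP factors was in 70.2%, 63.3% and 13%, CCAATC of NF-Y in 24.3%, 18.5% and 10.6%, and ACTACAA of ZNF143 in 6.05%, 3.38% and 3.35%. At least 3 of these 6 were in 9.58% of bidirectional and 4.57% of single-direction promoters.

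The motifs of AP-1, FOXA and HNF4 and the TATA motif were scarcer than in the regions at large. TGACTCA of AP-1 was in 1.39% (0.776 to 2.47) of bidirectional promoters, 4.78% of single-direction promoters and 14.3% of all regions. TGTTTAC of FOXA factors was in 1.51%, 2.70% and 6.72%, and CAAAGTCC of HNF4 in 0.504%, 1.34% and 2.39%, both being factors of liver cells. TATAAA was in 2.77%, 4.57% and 16.6%. More frequent than in all regions were TGACGTCA, the cyclic AMP response element, in 3.40%, 2.29% and 0.448%, and the E-box CACGTG in 9.21%, 8.45% and 4.19%. The matches can overlap one another, and TGACGTCA and CACGTG read the same on both strands. Single-direction promoters open in all lists held CCGGAAG in 18.5%, and bidirectional ones in 29.2%, so the difference was also there between regions open throughout.

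**Figure D5:**
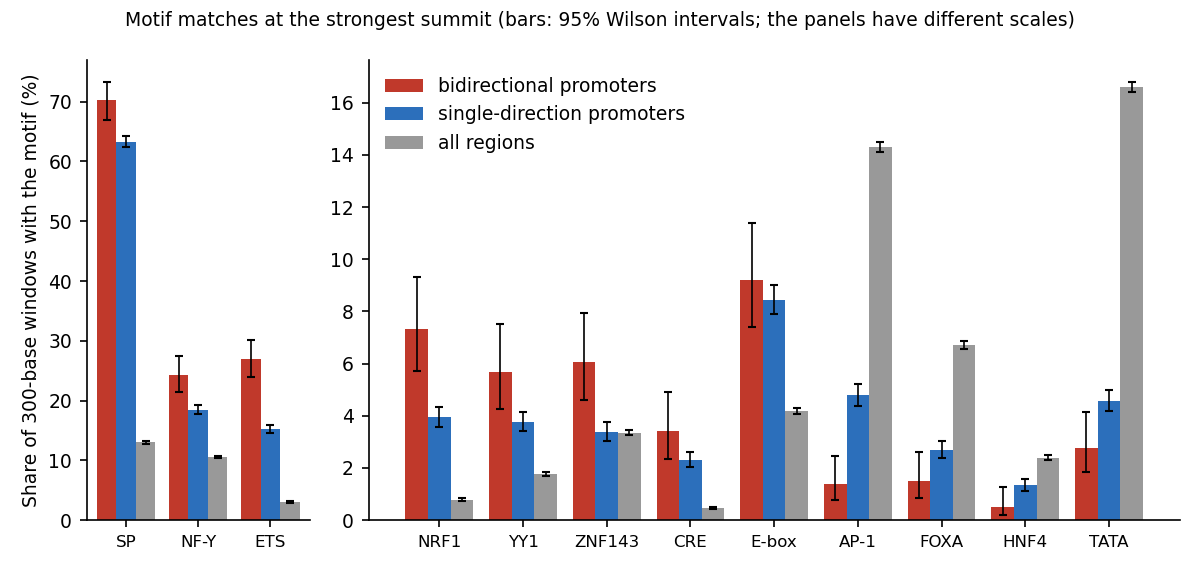
Share of 300-base windows on the strongest summit that held each motif on either strand (y axis, percent) in bidirectional promoters, single-direction promoters and all regions, with 95% Wilson intervals, in panels of different scale. ETS matches stand at 26.9%, 15.2% and 3.03%, while AP-1 matches stand at 1.39%, 4.78% and 14.3%.

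Most ETS and NRF1 matches lay near the midpoint of the pairs, while most NF-Y, YY1 and SP matches lay farther out. Of 473 ETS matches in the 1000 bases around the midpoints of all 859 pairs, 254 (53.7%) were within 100 bp of it. For NRF1 it was 113 of 170 (66.5%), for NF-Y 229 of 498 (46.0%), for YY1 37 of 111 (33.3%) and for SP 1098 of 3378 (32.5%).

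Regions with a motif were compared with those without by their lists. Of the 213 with an ETS match, 87.3% (82.2 to 91.1) were in all lists, and of the 580 without, 77.8% (74.2 to 81.0). The NF-Y shares were 91.7% (87.0 to 94.8) of 193 and 76.7% (73.1 to 79.9) of 600, and the E-box shares 95.9% (88.6 to 98.6) of 73 and 78.8% (75.6 to 81.6) of 720. With the YY1 motif they were 82.2% (68.7 to 90.7) of 45 and 80.2% (77.2 to 82.9) of 748. Among regions in all lists the median change in shared rank against NTG was -0.997 points with siINO80#1 and -0.41 with siINO80#2 where ETS was present, and -0.35 and 0.78 where YY1 was. It was above 0 with both siRNAs, each set against the same NTG list, where the E-box (2.58 and 2.45) or NRF1 (1.59 and 1.31) was present. The medians farthest from 0 were those of rare motifs, with 5.47 points with siINO80#2 in the 8 regions with AP-1 and -3.34 with siINO80#1 in the 10 with FOXA. Regions with ETS or NF-Y matches were also the stronger, with median NTG percentiles of 88.1 and 90.5 against 83.9 and 83.6 without, and the part of strength in these shares was not tested.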

How the data were processed

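The authors sequenced ATAC-seq libraries of 9 samples, and the submitters' processing notes name Trim Galore 0.4.1, Bowtie2, SAMtools, MACS2, deepTools 2.2.4 and hg19 without their settings. The handling of the transposase offset is not given in the sources used here. The authors deposited 1 narrowPeak list per siRNA, in which fold enrichment is a ratio of summit reads to local background and p and q are −log10 values. The lists skip 324, 371 and 334 peak numbers, so they had been filtered after calling. No interval ended beyond its GRCh37 chromosome.

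An interval with several summits counted once, by its strongest. Intervals that overlapped or touched were merged, and overlap was counted from 1 bp. Python 3.11.15, pandas 2.3.3, scipy 1.17.1 and pysam 0.24.0 were used. Pair finding, list classes and pileup recovery were tested on simulated data, and 100% were recovered. The simulated pileups followed the assumed MACS2 formulas and only solved summits were scored, so the assumption itself was not tested. The read ratios were not simulated.

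Groups came from the sample titles. Members, gene lists, markers and motifs were chosen with earlier results of these data known. Named pairs were those with INO80 complex genes, textbook pairs, the 5 strongest in all lists, the 3 highest in each other class, the 4 most above and 4 most below NTG with both siRNAs, and the closest and farthest starts. The 11 alternative settings varied windows, distance, merging, q, list length, overlap and strength. Some of the named pairs are not reported here.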

Additional observations from a re-analysis of the deposited data

Results flagged for a closer look

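Of 7 summary measures of bidirectional promoters, 4 lay on opposite sides of NTG with the 2 siRNAs against INO80. Regions with a peak differed from NTG by 14 with siINO80#1 and by -54 with siINO80#2, and gene pairs with a peak by 4 and -39. The share of pairs whose peak covered both starts differed by 0.762 percentage points with siINO80#1 and by -2.01 with siINO80#2. The median interval width differed by 2.50 bp and by -69.5 bp. Each value compares single lists, and the difference between the siRNAs was not tested. The siINO80#2 list held 52399 intervals against 68784 in NTG, and with all lists at 52399 the counts of regions were 675 (NTG), 676 (siINO80#1) and 673 (siINO80#2).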

How the results depend on the processing

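Of 146 values recomputed under 11 settings, 88 stayed close to the main value and 58 moved farther. Close meant within the counting interval of the main value or, for counts, within 1.5 times of it. Counts, shares and median percentiles cannot change sign. The median differences from NTG can, and they stayed negative in each setting run for them, some with an interval that also held positive values. With starts at most 500 bp apart, none of 18 values moved. The cause of each move was not tested unless stated. Counting pairs with overlapping 5′ ends gave 1355 pairs, 1192 of them with a region, and 1192 regions, of which 72.9% reached both starts. A −log10 q of at least 5 gave 5.63% in NTG alone, 0.741% in siINO80#2 alone, 80.3% with a siINO80#2 peak, 87.4% reaching both starts and 79.2% of mitochondrial pairs in all lists. At equal list length, siINO80#1 alone held 2.55%, siINO80#2 alone 4.84%, the pair NTG and siINO80#1 4.17% and the pair NTG and siINO80#2 1.48%. The lists then held 90.9% (siINO80#1) and 90.5% (siINO80#2) of the regions, 82.5% reached both starts, 91.8% of NTG intervals were matched in siINO80#2 and the NTG median percentile was 82.3.

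Merging within 500 bp, which joins flanking regions to the promoter, gave 86.8% in all lists, 1.78% in NTG alone, 1.78% in siINO80#1 alone, 1.1% in siINO80#2 alone, list shares of 95.8%, 96.4% and 90% for NTG, siINO80#1 and siINO80#2, and 85.9% reaching both starts. Start windows of 500 bp, which drop distant regions, gave 87.0% in all lists, 1.82% in NTG alone, 2.10% in siINO80#1 alone, list shares of 95.2%, 96.4% and 89.9%, and 87.3% reaching both starts. An overlap of at least 50% of the NTG interval left 90.1% matched in siINO80#1 and 79.9% in siINO80#2. With −log10 q as the strength, the median percentile was 87.5 in NTG and 85.9 in siINO80#1.

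The following settings were chosen after seeing the data, as was the use of those above for other results than the ones planned. Reach was taken on the merged region, which joins the intervals of its lists. Regions that reach both starts were 92.6% in all lists, 0.803% in NTG alone, 0.482% in siINO80#1 alone, 0.482% in siINO80#2 alone, 4.82% in NTG with siINO80#1, 0.161% in NTG with siINO80#2 and 0.642% in both siINO80 lists without NTG. Their list shares were 98.4%, 98.6% and 93.9%, and 98.5% and 93.2% of their NTG intervals were matched in siINO80#1 and siINO80#2. Over gene pairs with a region the shares were 88.7% in all lists, 1.29%, 1.16% and 1.16% in NTG, siINO80#1 and siINO80#2 alone, and 96.5%, 97.0% and 91.5% by list. The siINO80#2 difference from NTG in percentile was -0.034 points at equal list length and -0.16 in rank among shared regions, against -1.91.

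No paired analysis was possible because each list pools the 3 replicates of its group, and leaving out a replicate could not be run for the same reason. Replicate spread is therefore unknown, and read depth is known only through the rough ratios from the recovered backgrounds. NTG intervals in the weakest quintile by enrichment were matched least often in both siINO80 lists.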

Other observations

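A further 496 head-to-head pairs had gene-level starts that overlapped, by a median of 400 bp, and did not enter the counts above. Of these, 364 (73.4%, 69.3 to 77.1) had a peak in all lists and 81 in none. They included 4 pairs with INO80 complex genes. UCHL5/RO60 stood at percentiles 99.3 in NTG, 99.4 with siINO80#1 and 99.6 with siINO80#2, RUVBL1/EEFSEC at 75.1, 44.3 and 63.1, HIRIP3/INO80E at 53.0, 54.3 and 42.1, and TFPT/PRPF31 at 51.5, 7.44 and 13.9. Of the textbook pairs, MCM7/AP4M1 stood at 66.9, 64.2 and 45.4, and SURF1/SURF2 had a peak in no list.

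The share of divergent pairs open in all lists differed between chromosomes. On chromosome 19, 46 of 74 pairs (62.2%, 50.8 to 72.4) were open in all lists and 17 in none, while on chromosome 2 the counts were 54 of 57 (94.7%, 85.6 to 98.2) and 1. The median GC content around the midpoint was 63.2% on chromosome 19 and 65.7% on chromosome 2, and the difference was not tested.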
